A study of Mus musculus with 18 samples.

Results

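The Hedgehog pathway was followed here through 9 genes that define it: the secreted ligands Shh, Ihh and Dhh, the receptor Ptch1, the signal transducer Smo, the ligand-binding antagonist Hhip, and the transcription factors Gli1, Gli2 and Gli3. They were chosen by name, and all 9 were found among the 23228 genes of the table. Expression was measured by RNA sequencing in 2 samples of mouse embryos of the ICR strain, labelled WT. The first held the GFP-positive cells of E12.5 neural tubes, taken by flow sorting from embryos with the 2.3Ptf1a::GFP transgene. Its GFP is driven by the 2.3 kb Ptf1a autoregulatory enhancer with a basal promoter of beta-globin. The second was whole E15.5 pancreas, unsorted. The labels name 2 libraries per sample and the table holds 1 value per gene and sample, read here as pooled, so no difference has a replicate check and none was tested. Ptf1a is a transcription factor required in dorsal inhibitory neurons and in the pancreas, and the series set both tissues side by side. Tissue, stage, sorting, RNA extraction and possibly the library preparation differed together between the samples and cannot be told apart.

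In Hedgehog signalling, Patched receptors hold the membrane protein Smoothened inactive until a ligand binds them. Smoothened then acts in the primary cilium, Gli2 and Gli3 are no longer cut into repressors, and target genes are transcribed, among them Gli1, Ptch1 and Hhip. In the mouse neural tube Shh comes from the notochord and the floor plate and patterns the ventral side, while Gli3 repressor acts dorsally. In the early gut tube Shh is kept out of the epithelium that will form the pancreas, and Ihh and Dhh are known from later pancreatic stages.

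Ptch1, Gli2 and Gli3 were each higher in the sorted neural tube cells, Smo was high in both samples, and all 3 ligands were low in both. Values are FPKM as deposited, by the usual definition fragments per length of transcript and per total of mapped fragments. Levels of different genes can thus be set beside each other per length. Whether the samples were also scaled to each other is not known here. A call needed a difference of at least 2 on the log2(FPKM + 1) scale, or 4 times, and a level of at least 5 FPKM in the higher sample. This is a rule of size and not a test. By it 3 of the 9 members were called higher in neural tube and 0 in pancreas. The background is 10744 genes with a level of at least 5 FPKM in neural tube or pancreas, of which 10.3% were called higher in neural tube and 11.9% in pancreas. Only 4 members reached 5 FPKM in either sample, so the other 5 could not be called. The difference was positive for 7 members and negative for 2, with a median of 0.64 over all 9 whatever their level, against a median of -0.07 and 48.0% positive differences over the 14303 genes that reached 1 FPKM in neural tube or pancreas.

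**Figure D1:**
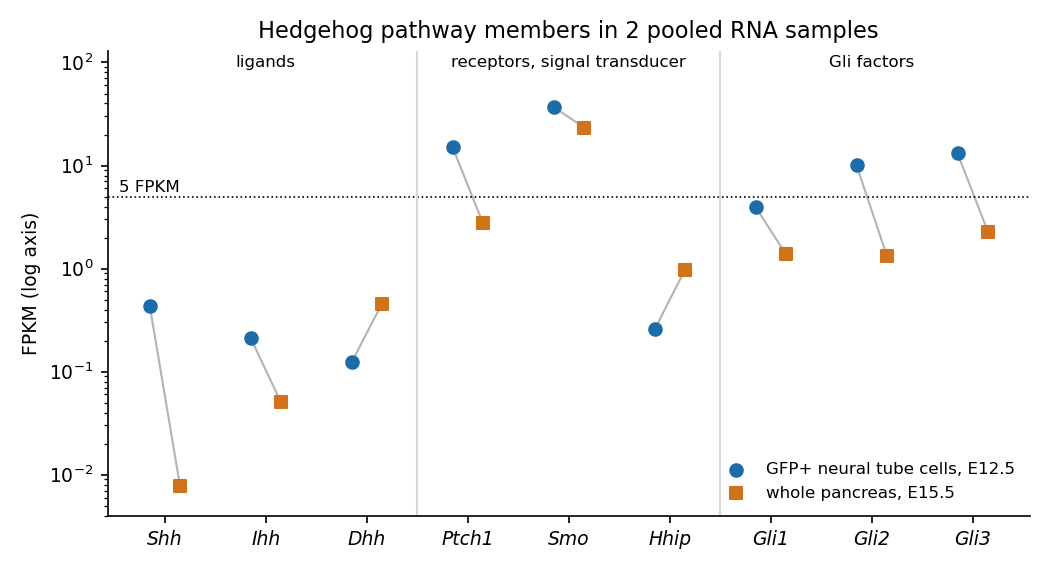
FPKM of each member on a log axis, with circles for the pooled GFP-positive neural tube sample and squares for the pooled whole pancreas sample. The dotted line marks 5 FPKM; in neural tube Smo, Ptch1, Gli3 and Gli2 lie above it, in pancreas only Smo does, and the ligands stay below 0.5 FPKM in both.

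The promoters of the 3 called members are shown because these genes were higher in the same sample. The windows run from 250 bases before to 50 bases after the gene start of RefSeq on GRCm38.p6 and are written 5′ to 3′ on the gene's strand. They were searched on both strands for the Gli binding sequence GACCACCCA and for its inner part CCACCC, which every GACCACCCA also contains, and capitals mark CCACCC or its reverse complement GGGTGG. The windows are those of Ptch1 (chr13:63565686-63565985, minus strand), Gli2 (chr1:119053570-119053869, minus strand) and Gli3 (chr13:15463473-15463772, plus strand).
Ptch1: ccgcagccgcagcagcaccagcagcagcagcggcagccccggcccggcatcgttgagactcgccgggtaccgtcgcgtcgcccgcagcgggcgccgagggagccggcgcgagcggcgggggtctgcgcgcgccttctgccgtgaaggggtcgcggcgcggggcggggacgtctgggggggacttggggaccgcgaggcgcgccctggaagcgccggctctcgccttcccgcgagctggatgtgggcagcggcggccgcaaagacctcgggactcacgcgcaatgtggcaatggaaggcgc
Gli2: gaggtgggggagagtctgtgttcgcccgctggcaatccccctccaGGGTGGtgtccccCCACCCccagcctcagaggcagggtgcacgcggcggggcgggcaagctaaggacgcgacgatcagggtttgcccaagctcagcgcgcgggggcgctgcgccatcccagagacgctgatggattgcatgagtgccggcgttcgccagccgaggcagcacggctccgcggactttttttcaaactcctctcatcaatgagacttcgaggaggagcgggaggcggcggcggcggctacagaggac
Gli3: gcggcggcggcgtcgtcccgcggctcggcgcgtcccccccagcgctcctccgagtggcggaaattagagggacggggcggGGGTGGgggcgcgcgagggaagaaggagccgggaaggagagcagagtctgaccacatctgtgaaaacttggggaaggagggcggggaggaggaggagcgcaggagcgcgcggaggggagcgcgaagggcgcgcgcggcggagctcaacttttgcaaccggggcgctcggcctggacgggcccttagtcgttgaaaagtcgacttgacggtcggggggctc

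Of the 9 members, 7 had a promoter in the table used, all but Shh and Gli1. None of the 7 windows held GACCACCCA, which occurs in 0.253% of the 32851 promoter windows of the table. CCACCC occurs in 31.5% of all windows. The Ptch1 window held 0 matches, those of Gli2 and Ihh held 2 each, and those of Gli3, Smo, Hhip and Dhh held 1 each. All 7 windows were richer in G and C than the median of 52.7% over all windows. The 3 printed ones were at 76.3% for Ptch1, 67.3% for Gli2 and 71.0% for Gli3. Those of the members not called were at 73.7% for Hhip, 72.7% for Ihh, 67.7% for Smo and 61.7% for Dhh. In the same gene order the printed windows held 47, 28 and 39 CG dinucleotides and the others 30, 30, 17 and 12. The median over all windows was 7. Neither trait was particular to the called members. A match or its absence describes these letters only.

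The ligands were low in both samples. Of the genes that reached 0.1 FPKM in the same sample, Shh stood above 13.8% in neural tube and Dhh above 13.7% in pancreas. These were the highest ligands of those samples. Shh, the ligand of notochord and floor plate (chr5:28783355-28793641, mm9), had 0.436 FPKM in the neural tube sample and 0.00782 FPKM in pancreas. From the lowest steps of the values, 1 fragment on a 1 kb transcript was worth about 0.0430 FPKM in neural tube and 0.0247 FPKM in pancreas. On the longest annotated coding transcript of Shh these levels correspond to about 27.3 fragments in neural tube and 0.853 in pancreas. The pancreas value is thus below the 3-fragment level of 0.0275 FPKM for that length, and no ratio is given. These fragment numbers are approximate, because transcript lengths come from GENCODE M1 and not from the authors. Shh also overlaps a long non-coding RNA on the other strand, 9530036O11Rik, which had 0.0414 FPKM in neural tube and 0.0282 FPKM in pancreas.

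Ihh, known from cartilage and gut epithelium (chr1:74991891-74998246), had 0.212 FPKM in neural tube and 0.0502 FPKM in pancreas, about 12.2 and 5.02 fragments in those samples. Dhh, known from Schwann cells, endothelium and testis (chr15:98723462-98728971), had 0.124 FPKM in neural tube and 0.455 FPKM in pancreas, about 6.80 and 43.6 fragments. It was 1 of the 2 members with a lower value in neural tube, with a difference of -0.37 on the log2(FPKM + 1) scale. Summed over the ligands the level was 0.772 FPKM in neural tube and 0.513 FPKM in pancreas. Shh made up 56.5% of that sum in neural tube and 1.52% in pancreas, where Dhh made up 88.7%. With so few fragments these shares describe the 2 samples and carry no interval.

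Markers of cells known to make Shh, Dhh and Ihh are given beside these levels, with no list for cartilage. Of 12 floor plate and notochord markers 3 reached 1 FPKM in neural tube and 5 in pancreas, and none was listed at 0 in neural tube. Together they came to 28.9 FPKM in neural tube, against 40.8 FPKM in pancreas, and 1 was listed at 0 in pancreas. Most of the neural tube sum came from Ntn1, the midline guidance cue netrin 1, with 23.5 FPKM there, against 11.4 FPKM in pancreas. The factor Foxa2, which defines the floor plate and is also a pancreatic factor, had 0.315 FPKM in neural tube, against 14.9 FPKM in pancreas. Of 12 Schwann and neural crest markers 8 reached 1 FPKM in neural tube and 9 in pancreas, and 2 were called higher in neural tube and 4 in pancreas, with a median difference of -0.64. Their sum was 212 FPKM in neural tube, against 87.2 FPKM in pancreas, but Fabp7, a lipid-binding protein that neural progenitors also express, alone had 183 FPKM in neural tube, against 14.3 FPKM in pancreas. Fabp7 and Ngfr, the latter with 13.2 FPKM in neural tube and 2.55 FPKM in pancreas, were the 2 called higher in neural tube. Erbb3, S100b, Pmp22 and Ret were the 4 called higher in pancreas. Among the markers that reached 1 FPKM in either sample, 5 differences were positive and 6 negative. Erbb3, S100b and Ret lost the call when the samples were rescaled to the housekeeping genes or to equal totals. Ngfr lost it with rescaling to the median ratio or to equal upper quartiles. With a pseudocount of 5 FPKM only Fabp7 and Pmp22 were called. Of 15 endothelial markers 11 reached 1 FPKM in neural tube and 15 in pancreas, and they came to 34.4 FPKM in neural tube, against 179 FPKM in pancreas. Of 15 gut epithelium markers 0 reached 1 FPKM in neural tube and 5 in pancreas. In all, 10 were listed at 0 in neural tube and 2 in pancreas. Their sum was 1.08 FPKM in neural tube, against 54.9 FPKM in pancreas. Most of the pancreas sum came from Rbp2, Tff2 and Vil1, with 21.1, 15.7 and 10.1 FPKM there. These 3 had 0.274, a listed 0 and 0.0684 FPKM in neural tube. The part of these cells in the ligand levels was not tested. In samples of whole RNA, fewer cells of a type and less RNA per cell cannot be told apart.

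Among the receptors and transducers, Smo was the highest of all 9 members in both samples. Smo encodes Smoothened (chr6:29685694-29711365) and had 37.1 FPKM in neural tube and 23.4 FPKM in pancreas. Its difference of 0.64 is under 2 times, as it was for 51.7% of the genes that reached 5 FPKM in neural tube or pancreas. Of the genes that reached 0.1 FPKM in the same sample, Smo stood above 87.1% in neural tube and above 80.8% in pancreas.

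Ptch1, which encodes the ligand receptor and is itself induced by the pathway (chr13:63610261-63674474), had 15.0 FPKM in neural tube and 2.75 FPKM in pancreas. Its difference was 2.09, or 5.44 times as FPKM, and it was second in order in both samples. Ptch1 stood above 68.6% of genes in neural tube and above 34.8% in pancreas. The ratio of Ptch1 to Smo was 0.404 in neural tube and 0.118 in pancreas.

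Hhip, a membrane protein that binds ligands and is induced by the pathway as Ptch1 is (chr8:82490014-82581905), went the other way. It had 0.256 FPKM in neural tube and 0.972 FPKM in pancreas, a difference of -0.65 on values below 1 FPKM in both samples. Its levels correspond to about 27.3 fragments in neural tube and 180.5 in pancreas. The ratio of Ptch1 to Hhip was therefore 58.4 in neural tube and 2.83 in pancreas. Under the 5 rescalings the difference of Hhip lay between -0.68 and -0.37. They could not have turned its direction. Hhip was 3.79 times as high in pancreas as FPKM, and the smallest factor applied to pancreas was 0.647.

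**Figure D2:**
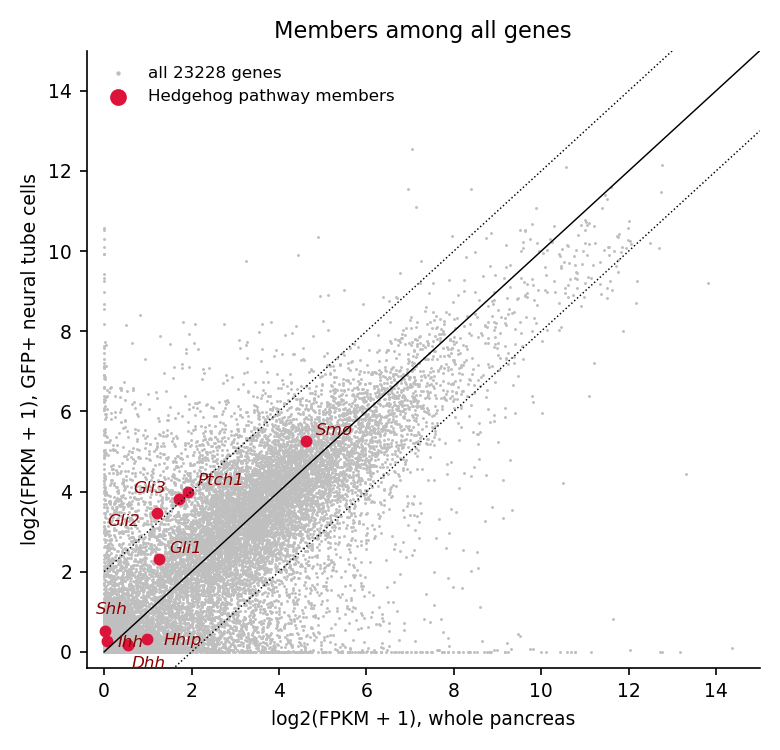
Each grey point is 1 of 23228 genes, with log2(FPKM + 1) in the GFP-positive neural tube sample on the vertical axis and in whole pancreas on the horizontal axis; red points are the 9 members, the solid line marks equal values and the dotted lines a difference of 2. Ptch1, Gli2 and Gli3 lie just past the upper dotted line, with differences of 2.09, 2.24 and 2.10.

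All 3 Gli genes had higher values in neural tube, Gli2 and Gli3 past the rule and Gli1 not. Gli3, the main repressor of the pathway (chr13:15555068-15821859), had 13.1 FPKM in neural tube and 2.29 FPKM in pancreas, a difference of 2.10. Gli2, the main activator in response to ligand (chr1:120730709-120950196), had 10.0 FPKM in neural tube and 1.33 FPKM in pancreas, a difference of 2.24 that was the largest of the members. Gli1, an activator that is made when the pathway is on and often read as its output (chr10:126766945-126778645), had 3.95 FPKM in neural tube and 1.38 FPKM in pancreas. Its difference was 1.05, below the rule in size and in level. The end of Arhgap9, a gene on the other strand, overlaps Gli1 only between 126766945 and 126766999. Over its whole length Arhgap9 had 0.117 FPKM in neural tube and 1.94 FPKM in pancreas. Whether strand was used in counting is not stated.

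The Gli genes differed in their proportions too. Their summed level was 27.1 FPKM in neural tube and 5.00 FPKM in pancreas. Gli3 was the largest part in both, at 48.4% in neural tube and 45.8% in pancreas. Gli2 was 37.0% in neural tube and 26.6% in pancreas, and Gli1 was 14.6% in neural tube and 27.6% in pancreas. Gli3 was thus 3.32 times Gli1 in neural tube and 1.66 times Gli1 in pancreas, a ratio that no scaling of the samples changes. The annotation holds 9 transcripts of Gli2 and 4 of Gli3, and the transcript length assumed sets each FPKM.

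**Figure D3:**
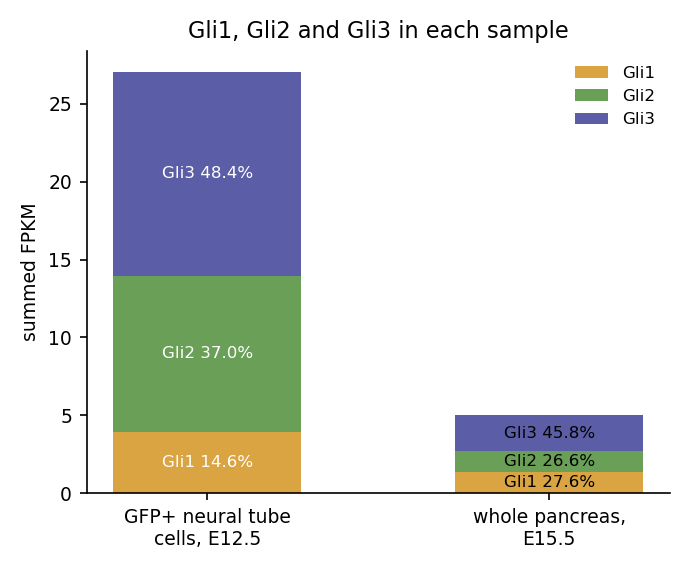
Stacked bars of the FPKM of Gli1, Gli2 and Gli3 in the GFP-positive neural tube sample and in whole pancreas, with each gene's percentage of the sum. The sums are 27.1 FPKM in neural tube and 5.00 FPKM in pancreas, and Gli1 takes 14.6% in neural tube and 27.6% in pancreas.

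Smo, Ptch1 and Gli3 were the 3 highest members in that order in both samples, and below them the order differed. From the highest, it was Smo, Ptch1, Gli3, Gli2, Gli1, Shh, Hhip, Ihh and Dhh in neural tube, and Smo, Ptch1, Gli3, Gli1, Gli2, Hhip, Dhh, Ihh and Shh in pancreas. Neighbours such as Gli1 and Gli2 in pancreas, at 1.38 and 1.33 FPKM, cannot be ordered without replicates. Among the pathway genes listed here, the nearest to Ptch1 by distance over its 2 log2 values was Gli3, at 0.26, followed by Arrb1 at 0.47. The nearest to Gli2 were Scube1 and the Notch ligand Jag2, at 0.38 and 0.45, and to Smo the kinase genes Adrbk1 and Gsk3a, at 0.34 and 0.35. Nearness over 2 values describes levels only.

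Other pathway genes were counted by role in the same way. Beside each count stand the shares over all genes at 5 FPKM or more, 10.3% higher in neural tube and 11.9% in pancreas. Only genes at that level in either sample could be called. These were 4 of the 6 ligand release genes, 7 of the 8 on the co-receptor list and 27 of the 31 regulators. Of the 29 cilium genes 20 could be called, and of the 23 target genes 14. Of 6 genes that process or release ligands, 3 were called higher in neural tube and 0 in pancreas. These were the Scube genes, whose secreted products help free lipid-modified ligands from the producing cell. Scube2 had 10.2 FPKM in neural tube and 0.165 FPKM in pancreas. Scube3 had 19.7 FPKM in neural tube and 1.60 FPKM in pancreas, and Scube1 had 11.9 FPKM in neural tube and 0.887 FPKM in pancreas. All 3 reached a higher level in neural tube than any ligand did there. With a pseudocount of 5 FPKM 0 of these genes were called, and at 8 times only Scube2 was. Disp2, a relative of the ligand exporter Dispatched, was at 9.06 FPKM in neural tube and 3.97 FPKM in pancreas, and Disp1 itself, named after its values were seen, was listed at 0 in both samples.

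The co-receptor list, which also holds the glypicans Gpc1, Gpc3, Gpc4 and Gpc6, went in both directions. Of its 8 genes 1 was called higher in each sample, with 4 positive and 4 negative differences. The median was -0.027, and its sign turned under 3 of the 5 rescalings. Cdon, Lrp2, Gpc1, Gpc4 and Gpc6, named after their values were seen, had differences of -0.62, 0.34, 1.58, -1.20 and -0.39. Apart from the glypicans only Cdon had a negative difference. Boc, an immunoglobulin co-receptor that promotes signalling, had 37.4 FPKM in neural tube and 5.39 FPKM in pancreas, a difference of 2.59. Gas1, a co-receptor anchored in the membrane by lipid, had 87.3 FPKM in neural tube and 25.0 FPKM in pancreas. Its difference of 1.77 was below the rule and ranged from 1.70 to 2.36 over the rescalings, past the rule under 3 of them. Gpc3, a glypican that competes with Patched for ligand, had 43.6 FPKM in neural tube and 346 FPKM in pancreas, a difference of -2.96. At 8 times neither Boc nor Gpc3 was called.

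Of 31 genes that regulate Smoothened or the Gli proteins, 5 were called higher in neural tube and 0 in pancreas, with a median of 0.58. With a pseudocount of 5 FPKM only Csnk1e was called, and at 8 times only Gpr161. Gpr161, a ciliary receptor that keeps the pathway off through protein kinase A, had 18.0 FPKM in neural tube and 1.21 FPKM in pancreas. Sufu, which holds Gli proteins inactive in the cytoplasm, had 20.4 FPKM in neural tube and 3.79 FPKM in pancreas. Csnk1e and Gsk3b, kinases that phosphorylate Gli proteins among other substrates, had 105 and 46.8 FPKM in neural tube and 12.4 and 10.3 FPKM in pancreas. Arrb1, a beta-arrestin, had 19.8 FPKM in neural tube and 3.51 FPKM in pancreas. The 2 with the highest mean were not called: Gnas, the stimulatory G protein subunit, had 522 FPKM in neural tube and 965 FPKM in pancreas, and Prkar1a, a regulatory subunit of protein kinase A, had 95.4 FPKM in neural tube and 84.3 FPKM in pancreas. Of the 27 at 5 FPKM or more in either sample, 63.0% differed by under 2 times, against 51.7% over all genes.

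The machinery of the cilium differed less between the samples. Of 29 cilium and intraflagellar transport genes 0 were called in either direction, with a median of 0.27. Of the 20 at 5 FPKM or more in either sample, 80.0% differed by under 2 times, against 51.7% over all genes. Arl3, a small GTPase of ciliary cargo release, had 71.7 FPKM in neural tube and 47.9 FPKM in pancreas. Ift20, a transport subunit that also sits at the Golgi, had 25.5 FPKM in neural tube and 85.2 FPKM in pancreas, a difference of -1.70.

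**Figure D4:**
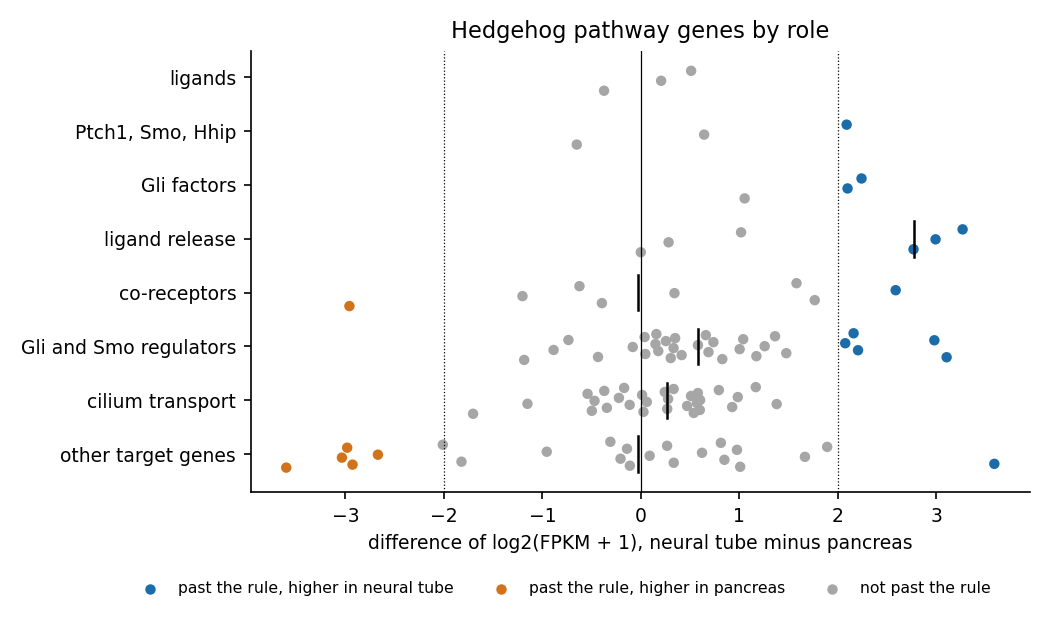
Difference of log2(FPKM + 1), neural tube minus pancreas, for each pathway gene by role; every point is 1 gene, coloured where it passed the rule of size, dotted lines mark differences of 2 and -2, and the black bars in the lower 5 groups are medians of genes that reached 1 FPKM in neural tube or pancreas. The cilium genes show no coloured point, and the 3 Scube genes, Boc, 5 regulators, Mycn, Ptch1, Gli2 and Gli3 lie beyond 2. The coloured points beyond -2 are Gpc3, Foxa2, Nkx2-2, Barx1, Igfbp3 and Osr1.

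Genes known as Hedgehog targets in some tissue went in both directions. Of 23 such genes 1 was called higher in neural tube and 5 in pancreas. The pancreas count was 1 with a pseudocount of 5 FPKM, 3 with a filter of 10 FPKM, which left out Barx1 and Nkx2-2, and 2 at 8 times. The median over the 20 at 1 FPKM or more was -0.025, with 10 positive and 10 negative differences, and its sign turned under 3 of the 5 rescalings. Mycn, a growth-promoting factor, had 44.5 FPKM in neural tube and 2.78 FPKM in pancreas. Foxa2 and Nkx2-2, targets in the ventral neural tube and factors of pancreatic cells, were called higher in pancreas, Nkx2-2 with 0.243 FPKM in neural tube, against 9.19 FPKM in pancreas. Barx1 and Osr1, factors of foregut mesenchyme, were at 0.327 and 0.978 FPKM in neural tube and at 9.48 and 11.6 FPKM in pancreas. Foxf1a, Foxf2 and Nkx3-2, mesenchyme factors named after their values were seen, were low in both samples and went both ways. Foxf1a and Foxf2 had 1.21 and 1.13 FPKM in neural tube, against 0.836 and 0.0820 FPKM in pancreas. Nkx3-2 had 0.674 FPKM in neural tube and 0.808 FPKM in pancreas. Igfbp3, which binds growth factors, had 3.49 FPKM in neural tube, against 33.2 FPKM in pancreas. The cyclin genes Ccnd1 and Ccnd2 had 76.0 FPKM each in neural tube and 37.3 and 41.7 FPKM in pancreas, below the rule.

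The labelled tissues were set beside their markers. The lists were written with earlier results of these data known, so this is not an independent check. Of 15 dorsal progenitor markers 11, and of 16 dorsal inhibitory neuron markers 13, were called higher in neural tube and 0 in pancreas, with summed levels of 393 and 842 FPKM in neural tube and 0.731 and 34.6 FPKM in pancreas. Of 10 ventral progenitor markers 0 were called higher in neural tube and 1 in pancreas, and they went both ways. Nkx2-2 and Nkx6-1, which islet cells also express, had 0.243 and 1.33 FPKM in neural tube and 9.19 and 7.23 FPKM in pancreas, where the whole list came to 9.31 FPKM in neural tube and 20.3 FPKM in pancreas. Olig2 and Dbx1, named after their values were seen, had 2.71 and 1.74 FPKM in neural tube, against a listed 0 and 0.0117 FPKM in pancreas. The median of -0.67 turned to 0.15 without a filter on low values and to 0.15 with equal totals. Zic1 and Pax3 of the progenitor list had 213 and 29.2 FPKM in neural tube, against 0.0140 and 0.0123 FPKM in pancreas, and Pax2 and Lhx5 of the neuron list had 112 and 80.7 FPKM in neural tube, against 0.00811 and 0.0287 FPKM in pancreas. Acinar markers (14 of 16), duct markers (11 of 13) and endocrine markers (10 of 18) were called higher in pancreas, and 0 of them in neural tube. Of the acinar markers 5 were listed at 0 in neural tube, and their summed level was 0.626 FPKM there. Of 24 housekeeping genes 0 were called higher in neural tube and 3 in pancreas.

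The pancreas was whole tissue, and markers of other cell types were detected in it. Of 24 mesenchyme markers 1 was called higher in neural tube and 13 in pancreas, with a summed level of 555 FPKM in neural tube, of which the widely expressed Vim made up 477, and 1721 FPKM in pancreas. Macrophage markers summed to 8.36 FPKM in neural tube and 251 FPKM in pancreas. Erythroid markers went both ways, with 3 called higher in neural tube and 4 in pancreas. The embryonic globin genes Hba-x, Hbb-bh1 and Hbb-y were the 3, Hba-x with 481 FPKM in neural tube and 33.6 FPKM in pancreas. Hba-a1, an adult globin gene, had 587 FPKM in neural tube and 14315 FPKM in pancreas, where the whole list came to 1684 FPKM in neural tube and 16015 FPKM in pancreas. Barx1 and Osr1, named above as targets, are also on the mesenchyme list. The part of these cells in the levels of Ptch1, Hhip and the Gli genes was not tested.

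**Figure D5:**
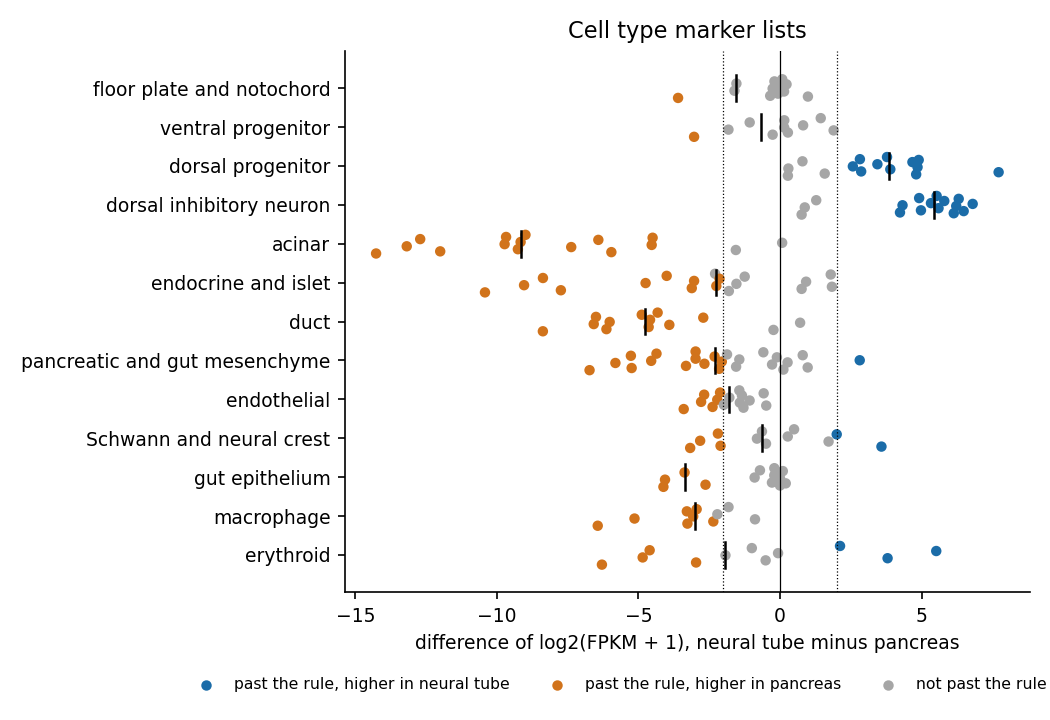
Difference of log2(FPKM + 1), neural tube minus pancreas, for each gene of the cell type marker lists, coloured where it passed the rule of size; dotted lines mark 2 and -2 and black bars are medians of genes that reached 1 FPKM in neural tube or pancreas. Dorsal neural markers lie to the right, with medians of 3.84 and 5.43, and acinar, duct and mesenchyme markers lie to the left, with medians of -9.16, -4.76 and -2.31.

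The calls of Ptch1, Gli2 and Gli3 stood close to the threshold. Under all 5 rescalings of the samples they were kept, with differences of 2.04 to 2.52 for Ptch1, 2.20 to 2.57 for Gli2 and 2.05 to 2.51 for Gli3. The rescalings multiplied the pancreas values by 1.02 and 1.05, or by 0.794, 0.647 and 0.778. Factors below 1 can only raise these differences, and the other 2 were too close to 1 to end the calls. That the calls were kept therefore says little. A pseudocount of 5 FPKM in place of 1 brought the 3 differences to 1.37, 1.25 and 1.31, and a threshold of 8 times also ended all 3 calls.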

How the data were processed

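The 9 members, the gene lists and the thresholds were chosen with earlier results of these data known. RNA of 2 of the 18 samples was used; the other 16, of chromatin, are not analysed here. A gene of the co-receptor and target lists is not reported here and was left out of their counts and medians. The deposited values are FPKM, per the file headers, with 1 pooled column per tissue. Per the submitters' processing notes the tools included Cuffdiff 2.0.2, TopHat2 2.0.4, TopHat and CASAVA, with build mm9; which annotation was used, and whether low values were removed, is not given in the sources used here. RNA came from the sorted cells by a column kit and from pancreas by Trizol, per the labels' protocols.

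From these, log2(FPKM + 1) in neural tube minus pancreas was computed with Python 3.11.15 and pandas 2.3.3, after a check on simulated data. With 1 pooled value per tissue no test was possible. List medians cover genes that reached 1 FPKM in neural tube or pancreas. Coordinates of genes are from GENCODE M1 (NCBIM37, equal to mm9), and promoter coordinates are on GRCm38.p6. The value of 1 fragment was read as the most frequent low value of FPKM times length among genes with 1 annotated transcript, of which 1671 in neural tube and 2299 in pancreas had low values. The ratio of these steps corresponds to a depth about 1.74 times greater in pancreas if the samples were not also scaled to each other, and no interval is given. Named beside the members were, of each pathway list, the genes past the rule and the 2 with the highest mean, the 2 nearest genes of each member at 5 FPKM or more, and of the marker lists only some of those the same rule names; any other gene is said to be named after its values were seen. Alternatives tried were 5 rescalings, thresholds of 2 and 8 times, a pseudocount of 0.1 or 5 FPKM, and a filter of 10 FPKM or none.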

Additional observations from a re-analysis of the deposited data

How the results depend on the processing

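No paired analysis was possible because each tissue had 1 pooled value, and for the same reason no replicate could be left out. Of the 9 members, 3 were called higher in neural tube under 9 of 11 alternatives and 0 with a pseudocount of 5 FPKM or a threshold of 8 times. In pancreas 0 were called higher under any of them. No filter, a threshold of 2 times or a pseudocount of 0.1 FPKM could not end a neural tube call. The rescalings could hardly end these 3. With the filter of 10 FPKM Gli2 was kept by a small margin, at 10.02 FPKM in neural tube. The median difference of the members, 0.64 as reported, was 1.45 with a pseudocount of 0.1 FPKM, 2.09 over the 4 members left by a filter of 10 FPKM and 1.24 with rescaling to equal totals. Counts over all genes, 1106 higher in neural tube and 1278 in pancreas, were 512 and 600 with a pseudocount of 5 FPKM, 2494 and 2690 at 2 times, and 546 and 653 at 8 times; with equal totals the pancreas count was 804. The share of calls toward neural tube was 46.4% as reported, 58.1% with housekeeping centring, 67.0% with equal totals and 59.0% with equal totals without the 50 highest genes of each sample. The median difference of genes that reached 1 FPKM in both, 0.02 as reported, was 0.31, 0.55 and 0.33 under these same rescalings. The median of other target genes, -0.025, turned to 0.21, 0.43 and 0.23 under housekeeping centring, equal totals and equal totals without the highest genes. That of the co-receptor list, -0.027, turned to 0.19, 0.37 and 0.21 under these rescalings, 0.045 with a pseudocount of 0.1 FPKM and 0.48 with a filter of 10 FPKM. That of ventral markers, -0.67, turned to 0.15 both without a filter and with equal totals. That of Schwann markers, -0.64, turned to 0.013, 0.17 and 0.030 under housekeeping centring, equal totals and equal totals without the highest genes, and that of housekeeping genes, -0.38, to 0.25 with equal totals. The cause of these changes was not tested. Depth limits the ligands most, of which Shh in pancreas was below 3 fragments.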
